A study of Mus musculus with 9 samples.

Results

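Matrix metalloproteinases (MMPs), the ADAMTS proteinases, the ADAMTS-like (ADAMTSL) proteins and the tissue inhibitors of metalloproteinases (TIMPs) were followed by ribosome footprint counts while mouse preadipocytes turned into beige adipocytes. The genes were taken by name, as every symbol made of Mmp, Adamts, Adamtsl or Timp and a number, with at most 1 letter after it. This gave 51 of the 55359 genes in the table: 23 MMP, 19 ADAMTS, 5 ADAMTSL and 4 TIMP genes. The precursor cells had been isolated from the inguinal fat pad, a white depot under the skin, and were harvested either without induction (day 0) or at 4 or 8 days of beige differentiation, with 3 libraries per day. Cells of the later days had first spent 2 days in a medium with dexamethasone, 3-isobutyl-1-methylxanthine, indomethacin, insulin, 3,3′,5-triiodo-L-thyronine and rosiglitazone. They were then kept in a medium that lacked the first 3 of these agents. The strain, age and sex of the mice, and whether equal replicate numbers share an animal or a culture, are not stated in the labels, so each p-value reflects the spread among libraries, which may be technical. The study measured translation activity over differentiation.

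MMPs are zinc-dependent proteinases that cut collagens, laminins, fibronectin and other matrix proteins, and they are made as inactive precursors. ADAMTS proteinases are secreted relatives with thrombospondin repeats, several of which cut proteoglycans such as versican or trim procollagens, while ADAMTSL proteins share the thrombospondin repeats but lack the catalytic domain. TIMPs bind the active site of these enzymes. In fat tissue the pericellular matrix is rebuilt as precursors fill with lipid, and Mmp14, a membrane-anchored collagenase, is known to be needed for normal white fat growth.

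Library totals lay between 30823028 and 38994892 counts. Levels are normalised read counts, written CPM and scaled to the library sizes, given per library in the order replicate 1, 2 and 3 or as mean ± SD with n = 3. Footprints were counted per gene without correction for length, so levels are compared between days for 1 gene and not between genes. Of 10 adipocyte markers 9 were tested and all 9 were higher at day 4 and at day 8 than at day 0. Of 12 preadipocyte and fibroblast markers 4 were lower and 3 higher at day 4 (Dlk1, Ly6a and Cd34, at 0.77, 0.86 and 1.70 on the log2 scale), and 8 were lower and 0 higher at day 8. Their summed level ran from 75785 to 90661 CPM at day 0, from 29993 to 42573 at day 4 and from 9206 to 22484 at day 8. Col1a1 and Col3a1, which are also among the substrates below, made up 90.2% to 94.8% of it, and the other 10 summed to 4152 to 4879, 1563 to 2593 and 867 to 1441 CPM. Of 7 smooth muscle and pericyte markers 4 were lower and 1 higher at day 4 and 4 lower and 2 higher at day 8, with sums of 3892 to 5860, 116 to 418 and 306 to 460 CPM. Of 7 endothelial markers 6 were tested, 2 were lower at day 4 and 5 at day 8, and 0 were higher. Their sums were 20.0 to 28.0 CPM at day 0, 6.16, 20.0 and 6.09 at day 4 and 3.48 to 8.09 at day 8, with day 4 replicate 2 level with day 0. The part of these markers in the results below was not tested, and in these bulk samples fewer cells of a type and less RNA per cell cannot be told apart. On the first principal component of all tested genes day 4 replicate 2 and day 8 replicate 3 lay nearer to day 0 than the other libraries of their day. Day 4 replicate 2 was the highest library of its day for 21 of the 27 proteinase, ADAMTSL and inhibitor genes that fell by day 8, and day 8 replicate 3 was the highest of its day for 23 of them. The same ranks were not counted over all tested genes that fell, so they describe the libraries and not these genes.

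Most of the family lost footprints during differentiation, and a small number of genes gained them. A total of 39 of the 51 genes passed the filter on low counts and were tested with edgeR's quasi-likelihood test. A gene is said to have risen or fallen where its Benjamini-Hochberg adjusted p over all 14714 tested genes was under 0.05. At day 4 21 of the 39 had fallen and 10 had risen against day 0, where 28.4% of all tested genes had fallen and 29.8% had risen (58.2% in either direction). By day 8 27 had fallen and 4 had risen, against 33.5% and 34.2% of all tested genes (67.7%). Between day 4 and day 8 15 fell and 1 rose, against 17.1% and 14.7% (31.8%). That last total of 16 was 10 without day 8 replicate 1, 9 without day 8 replicate 2 and 25 without day 4 replicate 2 and day 8 replicate 3 together. Leaving out both also called Mmp2 lower at day 4 (-0.78), Adamts3 (-0.83) and Adamtsl4 (-0.74) lower at day 8 than at day 0, and Timp1 (-0.42), Timp4 (-1.20) and Mmp23 (-0.49) lower at day 8 than at day 4. Both libraries had been seen to lie nearer to day 0, and without them 15012 genes were tested. Calls over all tested genes then rose as well, from 8563 to 10001 at day 4 and from 9961 to 10638 at day 8. Between the later days they rose from 4676 to 5481. The median log2 fold change of the tested members was -1.17 at day 4 and -1.86 at day 8 against day 0, and -0.61 between both later days, where the medians of all tested genes were -0.02, -0.01 and -0.02. These counts describe the members that passed the filter. Of these, 9 reached its level of 0.279 CPM in every library of a day on fewer than 3 days (Adamts16, Adamts17, Adamts19, Mmp9, Mmp10, Mmp12, Mmp13, Mmp16 and Timp4), and such genes pass through the days on which they are high.

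Over the 3 days the tested members had several courses. The mean was highest at day 0 for 27 of them, at day 4 for 9 and at day 8 for 3. The same count was not made over all tested genes, so it is not read as a trait of the family. A total of 20 had fallen at both later days against day 0 (23.1% of all tested genes), and 4 had risen at both, Timp4, Mmp15, Mmp28 and Adamts19 (25.2% of all tested genes). Among those that fell, Adamts16, Adamts17, Mmp10 and Mmp16 reached the filter level in every library only at day 0. Among those that rose, Timp4 and Adamts19 reached it only at the later days. A rise to day 4 with a fall from day 4 to day 8 was called for 7 genes, Mmp19, Mmp28, Adamts9, Adamts12, Adamts15, Adamtsl2 and Adamtsl4, where 5.73% of all tested genes had it. This course does not require a return to day 0, and Mmp28 was still higher at day 8 than at day 0. The opposite course, with a fall to day 4 and a rise to day 8, was called for Mmp12 (4.03% of all tested genes). Both comparisons with day 0 use the same day 0 libraries, and both comparisons behind the rise and later fall use the same day 4 libraries.

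**Figure D1:**
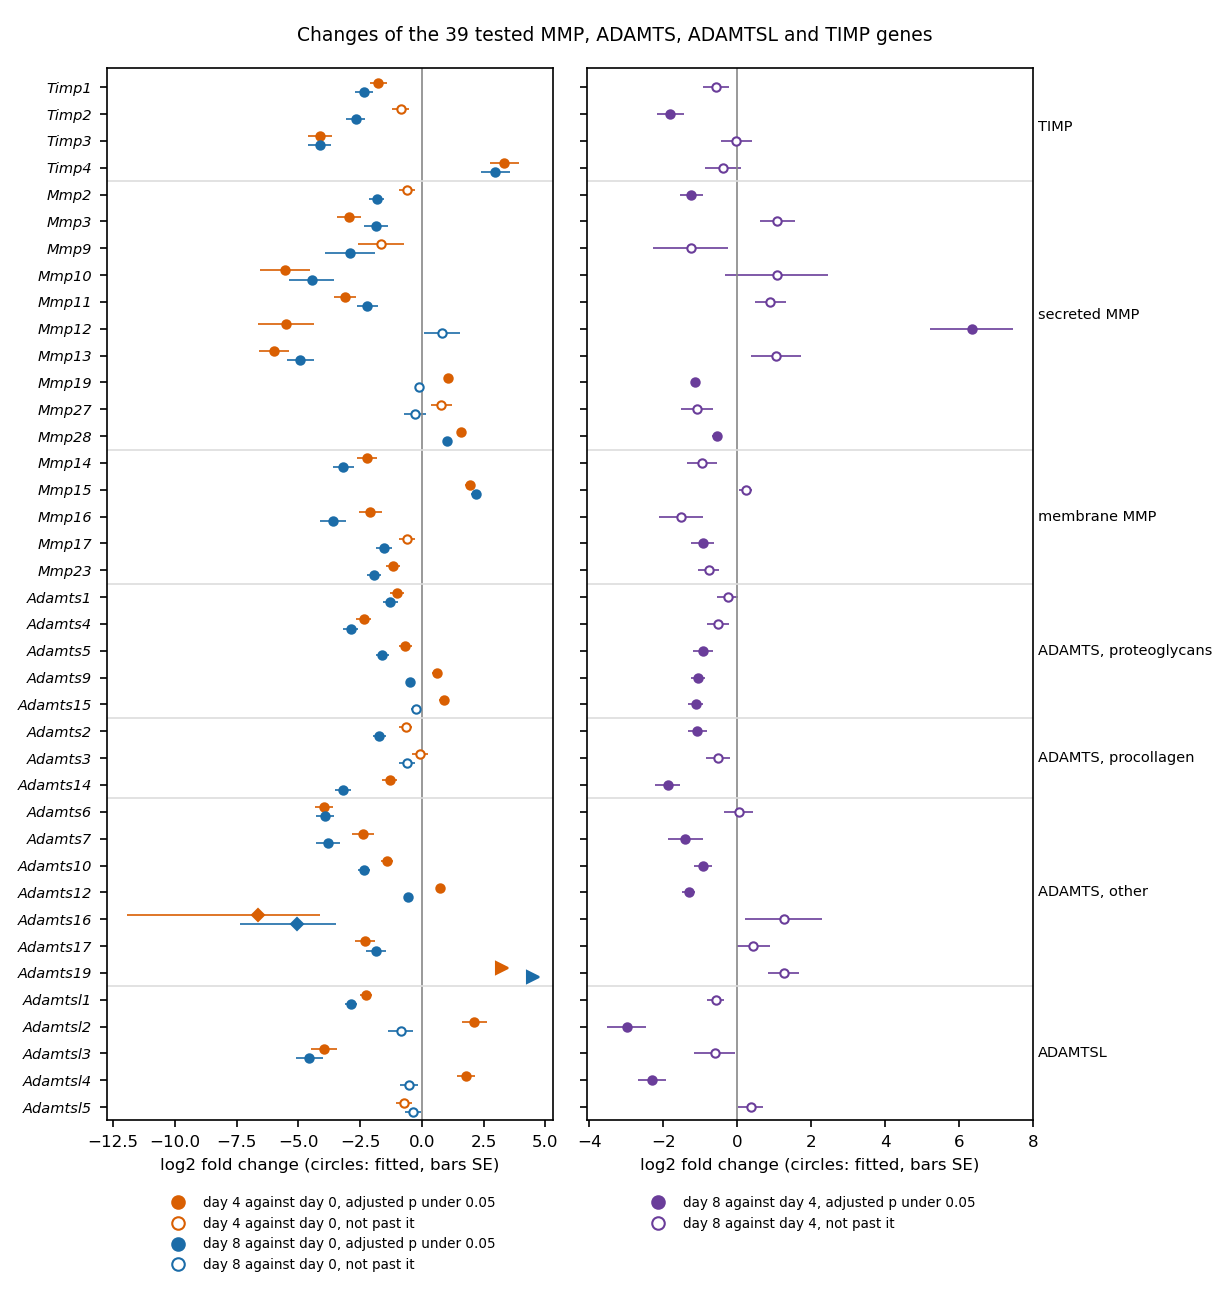
Log2 fold changes of the 39 tested genes, grouped by role, at day 4 and day 8 against day 0 on the left and at day 8 against day 4 on the right. Circles are fitted values with SE bars, filled where the adjusted p was under 0.05; diamonds (Adamts16, with 1 to 3 counts in the lower group) are ratios with a 95% counting interval and arrowheads (Adamts19, with 0 counts at day 0) are lower bounds. Most points on the left lie below 0, with Timp4, Mmp15, Mmp28 and Adamts19 above it at both days, and Mmp12 stands out on the right at 6.34.

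The 4 inhibitors did not move together. Timp1 (ENSMUSG00000001131), which inhibits most soluble MMPs, stood at 543, 462 and 443 CPM at day 0, at 97.5, 225 and 104 CPM at day 4 and at 86.2, 64.5 and 137 CPM at day 8. Every later library lay below every day 0 library. Its log2 fold change was -1.76 ± 0.35 SE at day 4 and -2.33 ± 0.36 at day 8, a fall of 3.39-fold and 5.03-fold (adjusted p = 0.00184 and 0.000276).

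Timp2 (ENSMUSG00000017466), which both inhibits MMPs and helps Mmp14 to activate the precursor of Mmp2 on the cell surface, kept more of its footprints at day 4. The libraries held 997, 729.8 and 920.3 CPM at day 0, 325, 716 and 416 CPM at day 4 and 109, 90.3 and 215 CPM at day 8. At day 4 replicate 2 was close to the lowest day 0 library, and the difference did not pass the test (-0.86 ± 0.36, adjusted p = 0.0615). It passed without day 4 replicate 2 (-1.25) and without day 8 replicate 3 (-0.85), with unscaled library totals (-1.01), upper-quartile scaling (-0.99) and DESeq2 (-0.86), without the low-count filter (-0.85) and with day 0 and day 4 alone (-0.83). The level fell from day 4 to day 8 (-1.81 ± 0.37, adjusted p = 0.00576) and was 6.39-fold lower at day 8 than at day 0 (-2.68 ± 0.38).

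Timp3 (ENSMUSG00000020044) had the deepest fall of the TIMP genes. It encodes a matrix-bound inhibitor that also acts on ADAM17 and on aggrecan-cutting ADAMTS enzymes. Its libraries went from 1195, 845 and 1114 CPM at day 0 to 70.1, 81.1 and 30.2 CPM at day 4 and 51.2, 31.6 and 95.8 CPM at day 8. The fall was 17.4-fold at day 4 and 17.7-fold at day 8 (-4.12 ± 0.47 and -4.14 ± 0.47, adjusted p = 5.92e-05 and 4.21e-05). Day 8 and day 4 overlapped, with a difference of -0.02 ± 0.42 (adjusted p = 0.973) whose sign turned with unscaled library totals (0.11).

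Timp4 (ENSMUSG00000030317), an inhibitor with a narrow tissue range that includes fat and heart, rose from a low level. Its libraries held 0.122, 0.248 and 0.414 CPM at day 0, with 4, 8 and 15 counts. At day 4 they held 2.97, 1.27 and 3.92 CPM and at day 8 1.20, 1.79 and 3.30 CPM. Every later library lay above every day 0 library. The rise was 10.2-fold at day 4 and 7.85-fold at day 8 (3.34 ± 0.59 and 2.97 ± 0.59, adjusted p = 0.000892 and 0.0014), and both later days overlapped (-0.37 ± 0.49, adjusted p = 0.593).

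**Figure D2:**
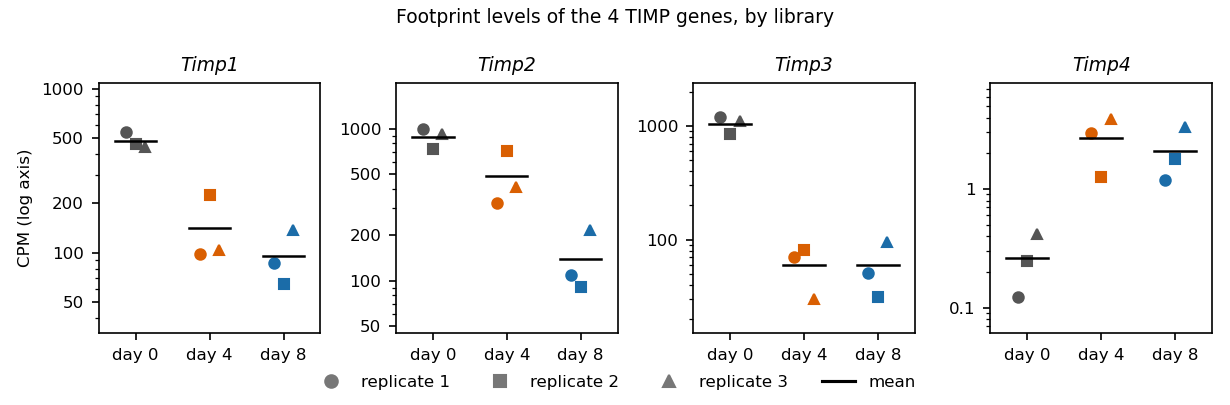
CPM of Timp1, Timp2, Timp3 and Timp4 on log axes in each of the 9 libraries, with the day on the x axis, 1 symbol per replicate and the mean of each day as a bar. Timp1, Timp2 and Timp3 end at 95.9, 138 and 59.6 CPM on average at day 8, below every day 0 library, and Timp4 lies above its day 0 libraries at both later days.

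Among the membrane-anchored MMPs, Mmp14 fell and Mmp15 rose. Mmp14 (ENSMUSG00000000957), the collagenase of the cell surface, stood at 2863, 3296 and 3409 CPM at day 0, at 385, 1125 and 530.3 CPM at day 4 and at 296, 228 and 527 CPM at day 8. Day 4 replicate 2 was the highest later library and still far below day 0. The fall was 4.69-fold at day 4 (-2.23 ± 0.42, adjusted p = 0.0012) and 9.10-fold at day 8 (-3.19 ± 0.43, adjusted p = 0.00012). Between the later days the libraries overlapped and the difference of -0.96 ± 0.40 did not pass the test (adjusted p = 0.0946). It passed without day 4 replicate 1 (-1.24) and day 8 replicate 3 (-1.38), by DESeq2 (-0.95) and without the low-count filter (-0.96).

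Mmp15 (ENSMUSG00000031790), its close relative, held 2.44, 1.55 and 2.01 CPM at day 0, 8.64, 6.71 and 7.81 CPM at day 4 and 8.79, 9.30 and 9.21 CPM at day 8. No later library came near day 0. The rise was 3.85-fold at day 4 and 4.54-fold at day 8 (1.95 ± 0.19 and 2.18 ± 0.19, adjusted p = 1.94e-05 and 7.77e-06), with a difference of 0.24 ± 0.18 between the later days (adjusted p = 0.327).

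Mmp23 (ENSMUSG00000029061), a proteinase with an N-terminal membrane anchor that is cut on release, stood at 201, 199 and 184 CPM, then at 59.2, 134 and 66.9 CPM and last at 46.8, 42.8 and 62.8 CPM. It fell 2.24-fold by day 4 and 3.83-fold by day 8 (-1.17 ± 0.28 and -1.94 ± 0.29, adjusted p = 0.00523 and 0.000212). The later difference of -0.77 ± 0.28 did not pass (adjusted p = 0.0592), but passed without day 4 replicate 1 (-0.98) or 3 (-0.93) or day 8 replicate 3 (-0.96), by DESeq2 (-0.76) and without the low-count filter (-0.78). Of the membrane-bound genes under 10 CPM, Mmp16 (ENSMUSG00000028226) fell from 1.05 ± 0.233 to 0.242 ± 0.172 and 0.0827 ± 0.0282 CPM (-2.09 ± 0.46 and -3.61 ± 0.53; -2.84 at day 4 without day 4 replicate 2). Mmp17 (ENSMUSG00000029436), whose protein has a glycolipid anchor, had 9.90 ± 1.94, 6.52 ± 2.96 and 3.42 ± 0.885 CPM. Its difference at day 4 was -0.60 ± 0.31 (adjusted p = 0.12) and passed without day 4 replicate 2 (-1.04). It fell 2.89-fold by day 8 (-1.53 ± 0.32, adjusted p = 0.00179). The fall of Mmp17 between day 4 and day 8 (-0.93 ± 0.32, adjusted p = 0.049) was not called without day 0 replicate 1 (-0.94), 2 (-0.93) or 3 (-0.93), without day 4 replicate 2 (-0.49) or without day 8 replicate 1 (-0.76) or 2 (-0.93), nor with a replicate block (-0.88), by limma-voom (-0.88), with unscaled library totals (-0.79) or upper-quartile scaling (-0.91) or with day 4 and day 8 alone (-0.93).

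The secreted gelatinases are Mmp2 and Mmp9, which cut denatured collagen and collagen IV. Mmp2 (ENSMUSG00000031740) stood at 1593, 1717 and 2769.8 CPM at day 0, at 972, 1656 and 1384 CPM at day 4 and at 435, 447 and 821 CPM at day 8. Day 4 overlapped day 0, and the difference did not pass the test (-0.60 ± 0.31, adjusted p = 0.125). All day 8 libraries were below all others, and the fall was 3.57-fold against day 0 (-1.84 ± 0.32, adjusted p = 0.000616) and 2.36-fold against day 4 (-1.24 ± 0.32, adjusted p = 0.0164). The fall from day 4 was not called without day 8 replicate 1 (-1.08) or replicate 2 (-1.09).

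Mmp9 (ENSMUSG00000017737) was low throughout and uneven at day 4. Its libraries held 2.68, 3.56 and 3.51 CPM at day 0, 0.145, 2.70 and 0.226 CPM at day 4 and 0.0558, 0.882 and 0.336 CPM at day 8. Day 4 replicate 2 lay among the day 0 libraries and the other day 4 libraries far below. The difference at day 4 did not pass the test (-1.66 ± 0.92, adjusted p = 0.148), but passed without that replicate (-4.10), by limma-voom (-2.76) and with a replicate block (-2.53). By day 8 Mmp9 had fallen (-2.92 ± 1.00, adjusted p = 0.0253). This call was lost without day 0 replicate 2 (-2.85) or 3 (-2.86) and without day 8 replicate 1 (-2.39) or 3 (-2.76), and the value was -4.02 without day 8 replicate 2. Neutrophils are a known source of Mmp9, Mmp8 and Mmp25. Of 8 neutrophil markers 2 were tested and S100a9 had 0 counts in all libraries. Their summed level was 0.359 to 0.495 CPM at day 0, 2.03 to 2.56 CPM at day 4 and 0.614 to 0.756 CPM at day 8, and its part in these values was not tested.

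A run of 10 MMP genes lies on chromosome 9 with no other protein-coding gene between its members in the RefSeq gene table, in the order Mmp13, Mmp12, Mmp1b, Mmp3, Mmp1a, Mmp10, Mmp8, Mmp27, Mmp20 and Mmp7. It holds collagenases, stromelysins and the macrophage elastase. Of the 5 tested genes in it, Mmp3, Mmp10, Mmp12 and Mmp13 fell by day 4 and Mmp27 did not pass the test. Mmp10, Mmp12 and Mmp13 did not reach the filter level in every day 4 library and passed the filter through other days. The promoter letters of the 5 tested genes are shown as a description, and their part in the changes was not tested. Each line gives the 120 bases before the annotated start from RefSeq (GRCm38.p6, plus strand), with matches to the AP-1 site TGANTCA and the TATA box TATAAA in capitals. AP-1 is a dimer of Fos and Jun proteins that is known to drive several of these genes.
Mmp3, chr9:7445702-7445821: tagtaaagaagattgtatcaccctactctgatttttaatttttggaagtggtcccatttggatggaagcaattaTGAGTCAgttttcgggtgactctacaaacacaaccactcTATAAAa
Mmp10, chr9:7502222-7502341: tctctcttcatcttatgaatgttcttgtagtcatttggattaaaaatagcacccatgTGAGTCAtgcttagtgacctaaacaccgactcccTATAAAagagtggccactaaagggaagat
Mmp12, chr9:7347254-7347373: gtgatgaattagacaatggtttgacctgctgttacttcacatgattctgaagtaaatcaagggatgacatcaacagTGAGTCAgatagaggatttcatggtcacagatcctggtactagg
Mmp13, chr9:7272394-7272513: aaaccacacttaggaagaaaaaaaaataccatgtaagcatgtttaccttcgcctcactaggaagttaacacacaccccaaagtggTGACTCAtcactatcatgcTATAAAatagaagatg
Mmp27, chr9:7571276-7571395: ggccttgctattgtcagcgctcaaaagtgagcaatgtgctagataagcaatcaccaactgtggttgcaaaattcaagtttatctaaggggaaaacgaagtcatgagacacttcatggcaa

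The AP-1 letters began 46 bases before the start in Mmp3, 63 in Mmp10, 44 in Mmp12 and 35 in Mmp13, and were not found for Mmp27. Mmp12 has a second annotated start whose window held no match, and the TATA letters of the start shown lay after it. In windows of 250 bases before to 50 bases after the start, searched on both strands, 8 of the 10 genes of the run held TGANTCA and 9 held TATAAA. Of the other 26 members with a window 0 held TGANTCA and 3 held TATAAA. Of the 8 genes with TGANTCA 4 were tested (Mmp3, Mmp10, Mmp12 and Mmp13), and the others failed the low-count filter. Whether members with and without these letters differed in their course was not tested. Of all 32851 windows, TGANTCA was in 7.81% and TATAAA in 13.6%. The direct repeat with a 1-base spacer that PPAR and RXR bind was in 0 of 39 windows of members and in 0.0396% of all windows. A match is a description of letters and not of binding, and 15 of the 51 members have no window in the table and were not searched.

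In the run, Mmp3 (ENSMUSG00000043613), the stromelysin that cuts proteoglycans and activates other MMPs, held 107, 169 and 126 CPM at day 0, 14.9, 21.1 and 16.0 CPM at day 4 and 19.2, 18.7 and 72.8 CPM at day 8. Day 8 replicate 3 was far above the other later libraries and below day 0. The fall was 7.73-fold at day 4 (-2.95 ± 0.50, adjusted p = 0.000665) and 3.63-fold at day 8 (-1.86 ± 0.48, adjusted p = 0.00595), and the latter value was -2.81 without day 8 replicate 3. From day 4 to day 8 its difference of 1.09 ± 0.47 (adjusted p = 0.105) passed by DESeq2 (1.10) and without the low-count filter (1.09). Mmp13 (ENSMUSG00000050578), a collagenase, held 9.62, 22.4 and 24.2 CPM at day 0, 0.494, 0.330 and 0.0564 CPM at day 4 and 0.279, 0.829 and 0.728 CPM at day 8. It ended day 4 and day 8 far under day 0 (-5.98 ± 0.60 and -4.92 ± 0.55, adjusted p = 2.33e-05 and 3.47e-05). Mmp10 (ENSMUSG00000047562), a second stromelysin, held 34, 90 and 69 counts at day 0, 0, 4 and 0 at day 4 and 1, 0 and 8 at day 8. Its log2 fold changes were -5.54 ± 1.01 and -4.47 ± 0.90 (adjusted p = 0.00105 and 0.00144). Their size, but not their direction, depended on the single libraries that held most of the later counts. Without day 4 replicate 2 day 4 had 0 counts, and day 0 was at least 22.2-fold higher against a floor of 3 counts per library. Without day 8 replicate 3 day 8 had 1 count, a ratio of day 0 to day 8 of 139 (95% exact counting interval 24.7 to 5535), and the fitted value at day 8 was -3.87 when replicate 2 of that day was left out.

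Mmp12 (ENSMUSG00000049723), the macrophage elastase, nearly vanished at day 4 and was back at day 8. Its libraries held 1.37, 3.47 and 5.99 CPM at day 0, 0.0872, 0.0826 and 0.0564 CPM at day 4 and 0.782, 11.2 and 7.17 CPM at day 8. In counts, day 4 had 3, 3 and 2 and day 8 had 28, 418 and 256, so the libraries of day 8 differed more from each other than those of day 0. The fall to day 4 was -5.52 ± 1.13 (adjusted p = 0.00214) and the rise from day 4 to day 8 6.34 ± 1.12 (adjusted p = 0.00324). Neither was called by limma-voom (-5.14 and 5.51), and the rise was 5.65 without day 8 replicate 2. Day 8 overlapped day 0 (0.82 ± 0.74, adjusted p = 0.345), a difference that passed without day 8 replicate 1 (1.36). Of 12 macrophage markers 9 were tested, and all 12 had counts in at least 1 library. Their summed level was 67.4, 103 and 129 CPM at day 0 and 69.3, 89.3 and 96.4 CPM at day 4, where Mmp12 was lowest. At day 8 the sum was 19.8, 43.8 and 55.8 CPM. Of the tested macrophage markers 1 fell by day 4 and 5 by day 8, and 0 rose. Day 8 replicate 1, the lowest library of its day for Mmp12, held Adgre1, a macrophage surface receptor, at 0.112 CPM, against 2.14 and 3.44 CPM in the others. The size of this gap differed between markers. Lyz2 stood at 1.06 CPM there against 10.1 and 15.4 CPM, and Cd68 at 3.41 CPM against 5.16 and 6.86 CPM. The part of macrophages in the Mmp12 values was not tested.

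Mmp27 (ENSMUSG00000070323) had 1.12 ± 0.0812, 1.93 ± 0.566 and 0.917 ± 0.571 CPM and passed no test at any day. Its difference was 0.78 ± 0.43 at day 4 and -0.29 ± 0.44 at day 8 (adjusted p = 0.144 and 0.576), the first passed with day 0 and day 4 alone (0.81), and the second was 0.10 without day 8 replicate 2. From day 4 to day 8 it was -1.08 ± 0.43 (adjusted p = 0.0854) and passed without day 8 replicate 3 (-1.64). Among the other genes of the run, Mmp8 had 9, 19 and 5 counts in all over the 3 days and Mmp1b 17, 0 and 0, while Mmp20 and Mmp7 had 1 count each and Mmp1a 0.

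Outside this run the secreted MMPs went both ways. Mmp11 (ENSMUSG00000000901), a stromelysin that leaves the cell already active and cuts few of the usual matrix proteins, held 390.4, 543 and 443 CPM at day 0, 27.2, 102 and 30.7 CPM at day 4 and 108, 96.3 and 94.4 CPM at day 8. It was 8.61-fold lower at day 4 (-3.11 ± 0.46, adjusted p = 0.000276) and 4.61-fold lower at day 8 (-2.20 ± 0.44, adjusted p = 0.00137). Day 4 replicate 2 lay level with day 8 and the other day 4 libraries well below it. Without that replicate the fall at day 4 was -3.98 and the difference of day 8 from day 4 passed the test as a rise (1.78), which with it was 0.90 ± 0.43 (adjusted p = 0.132). It also passed by limma-voom (1.17) and without the low-count filter (0.90).

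Mmp19 (ENSMUSG00000025355), which cuts basement membrane proteins, had little spread between libraries. It held 149, 154 and 154 CPM at day 0, 296, 323 and 327 CPM at day 4 and 142, 137 and 148 CPM at day 8. All day 4 libraries were well above all others. The rise to day 4 was 2.07-fold (1.05 ± 0.09, adjusted p = 1.12e-05) and the fall after it 2.22-fold (-1.15 ± 0.09, adjusted p = 0.000118). Day 8 differed from day 0 by -0.10 ± 0.09 (adjusted p = 0.366).

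Mmp28 (ENSMUSG00000020682), or epilysin, rose and stayed up. The libraries held 17.2, 14.6 and 14.5 CPM at day 0, 36.9, 51.6 and 48.7 CPM at day 4 and 31.4, 29.2 and 33.1 CPM at day 8. The 3 days did not overlap. Mmp28 was 2.96-fold above day 0 at day 4 and 2.02-fold at day 8 (1.57 ± 0.14 and 1.02 ± 0.14, adjusted p = 1.12e-05 and 0.00012). The fall between them (-0.55 ± 0.14, adjusted p = 0.0139) was not called without day 8 replicate 2 (-0.51).

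**Figure D3:**
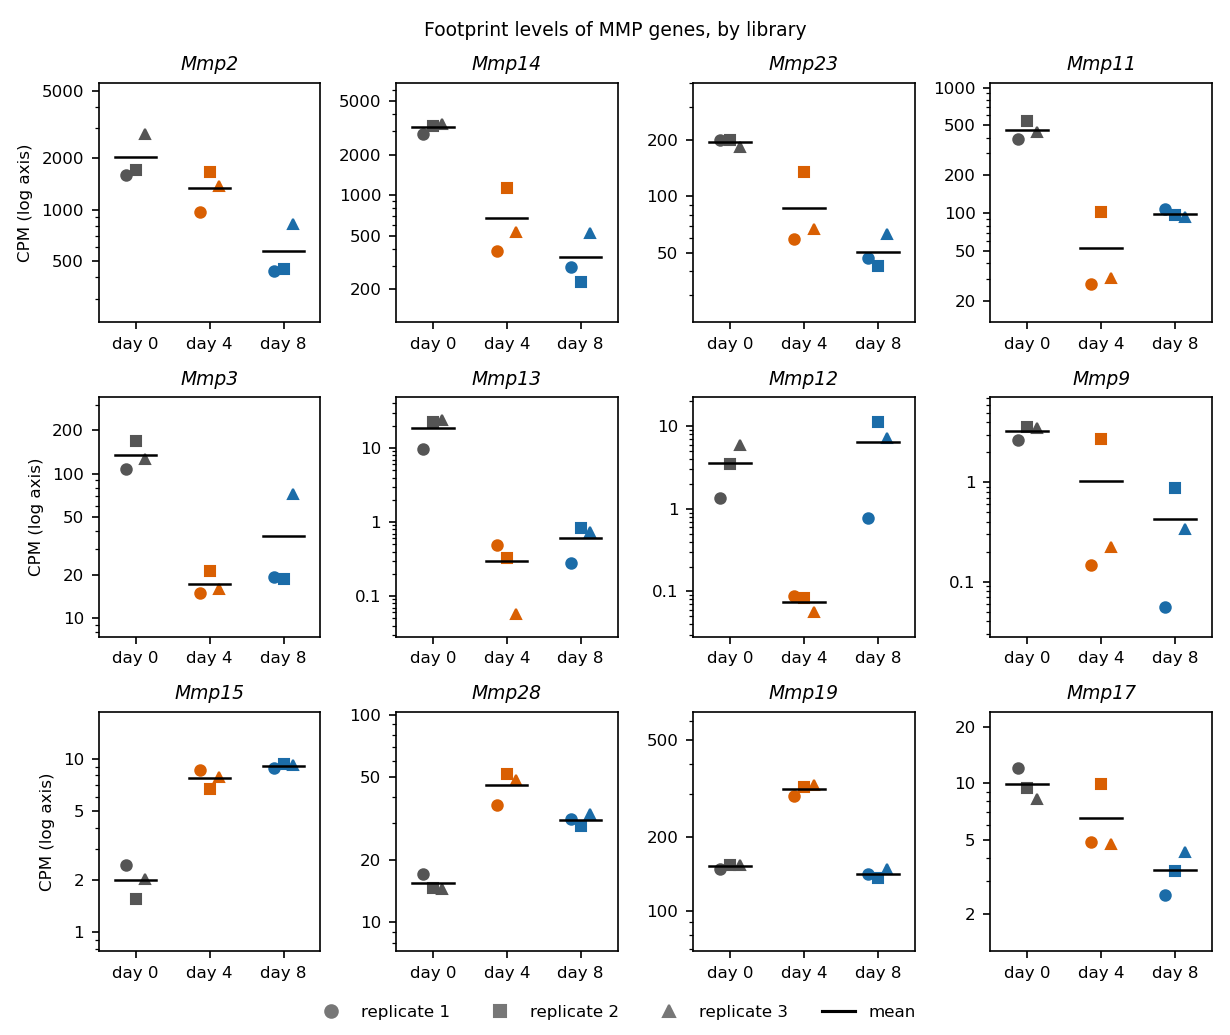
CPM of 12 MMP genes on log axes in each library, by day, with 1 symbol per replicate and the mean of each day as a bar. Mmp14, Mmp23, Mmp3, Mmp11 and Mmp13 drop from day 0 to day 4, Mmp15 and Mmp28 lie above their day 0 libraries at both later days, Mmp19 peaks at a mean of 316 CPM at day 4, and Mmp12 falls to 0.0754 CPM at day 4 and stands at 6.37 CPM at day 8.

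The ADAMTS enzymes that cut versican and aggrecan divided into genes that fell and genes that peaked at day 4. Adamts1 (ENSMUSG00000022893) and Adamts5 (ENSMUSG00000022894) are neighbours on chromosome 16. Adamts1 held 565, 597 and 687 CPM at day 0, 229, 451 and 234 CPM at day 4 and 218, 204 and 343 CPM at day 8. It fell 2.02-fold by day 4 and 2.42-fold by day 8 (-1.02 ± 0.28 and -1.27 ± 0.29, adjusted p = 0.0116 and 0.00283). Adamts5 held 355, 337 and 329.7 CPM, then 196, 260.4 and 181 CPM, and last 98.4, 71.9 and 166 CPM, with no overlap between the days. Its first fall was just past the threshold (-0.68 ± 0.26, adjusted p = 0.0488). It was not called without day 0 replicate 1 (-0.64), 2 (-0.69) or 3 (-0.70), without day 4 replicate 1 (-0.62) or 3 (-0.57), without day 8 replicate 1 (-0.66) or with a replicate block (-0.67). At day 8 it stood 3.04-fold under day 0 (-1.60 ± 0.27, adjusted p = 0.000474). The fall of Adamts5 from day 4 to day 8 (-0.92 ± 0.27, adjusted p = 0.0258) was not called without day 4 replicate 2 (-0.75) or day 8 replicate 1 (-0.85) or 2 (-0.69), nor with day 4 and day 8 alone (-0.92).

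Adamts4 (ENSMUSG00000006403), the other main aggrecan-cutting enzyme, had a deeper fall. Its libraries held 92.0, 104 and 113 CPM at day 0, 14.3, 29.9 and 16.1 CPM at day 4 and 13.4, 9.86 and 18.8 CPM at day 8. This was a fall of 5.11-fold and 7.34-fold (-2.35 ± 0.30 and -2.88 ± 0.31, adjusted p = 0.000113 and 2.77e-05).

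Adamts15 (ENSMUSG00000033453) and Adamts9 (ENSMUSG00000030022) were highest at day 4. Adamts15 held 78.8, 86.0 and 108 CPM at day 0, 159, 165 and 180.3 CPM at day 4 and 65.2, 60.8 and 106 CPM at day 8. Day 4 stood above every other library, by 0.89 ± 0.21 over day 0 (adjusted p = 0.00433), and the fall after it was -1.12 ± 0.21 (adjusted p = 0.00396). Its day 8 level overlapped day 0 (-0.23 ± 0.21, adjusted p = 0.339) and was called lower without day 8 replicate 3 (-0.51). Adamts9 held 37.7, 42.6 and 50.4 CPM, then 73.4, 49.0 and 76.6 CPM, and last 28.9, 28.7 and 37.3 CPM. Its rise by 0.61 ± 0.19 (adjusted p = 0.018), with day 4 replicate 2 inside the day 0 range, was not called without day 0 replicate 1 (0.53) or 2 (0.59) or day 4 replicate 1 (0.53) or 3 (0.50). The fall of Adamts9 from day 4 to day 8 was -1.07 ± 0.19 (adjusted p = 0.00314). Against day 0 it stood at -0.46 ± 0.19 at day 8 (adjusted p = 0.0494), a call lost without day 0 replicate 2 (-0.48) or 3 (-0.34), day 4 replicate 1 (-0.46) or 3 (-0.46) or day 8 replicate 1 (-0.39) or 2 (-0.38), with RLE scaling (-0.45), by DESeq2 (-0.45), by limma-voom (-0.46) and without the genes of the mitochondrial DNA (-0.46).

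Procollagen N-proteinases remove the N-terminal propeptide of fibrillar procollagens, and 2 of their 3 genes fell by day 8. Adamts2 (ENSMUSG00000036545) held 743, 696 and 726 CPM at day 0, 372, 609.8 and 396 CPM at day 4 and 165, 175 and 312 CPM at day 8. The days did not overlap. At day 4 the difference was -0.65 ± 0.26 (adjusted p = 0.054). It passed without day 4 replicate 2 (-0.91) or day 8 replicate 3 (-0.64), by DESeq2 (-0.65) and limma-voom (-0.69), with unscaled library totals (-0.80) or upper-quartile scaling (-0.78), without the low-count filter (-0.63) and with day 0 and day 4 alone (-0.62). At day 8 Adamts2 was 3.31-fold lower than at day 0 (-1.73 ± 0.27, adjusted p = 0.000279). It also fell from day 4 to day 8 (-1.08 ± 0.26, adjusted p = 0.0134), a call lost without day 8 replicate 1 (-0.92) or 2 (-0.95).

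Adamts14 (ENSMUSG00000059901) held 16.7, 22.2 and 17.4 CPM at day 0, 6.37, 8.23 and 8.06 CPM at day 4 and 2.29, 0.936 and 2.94 CPM at day 8. It fell at each step, to a level 2.48-fold under day 0 at day 4 and 9.13-fold at day 8 (-1.31 ± 0.31 and -3.19 ± 0.34, adjusted p = 0.0044 and 2.51e-05; -1.88 ± 0.33 between them, adjusted p = 0.00308). Adamts3 (ENSMUSG00000043635), which also serves lymphatic growth through the precursor of VEGF-C, had 2.75 ± 0.513, 2.59 ± 1.01 and 1.80 ± 0.451 CPM and passed no test (-0.09 ± 0.32 and -0.61 ± 0.33 against day 0, adjusted p = 0.832 and 0.126). The day 4 value of Adamts3 was 0.06 without day 0 replicate 1 and 0.20 without day 4 replicate 3.

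Of the other ADAMTS genes, Adamts6 (ENSMUSG00000046169) and Adamts10 (ENSMUSG00000024299) encode enzymes that act on fibrillin microfibrils. Adamts6 held 12.6, 12.3 and 9.72 CPM at day 0, 0.960, 0.660 and 0.592 CPM at day 4 and 0.754, 0.347 and 1.18 CPM at day 8. Both later days overlapped, and the fall was 15.6-fold at day 4 and 15.2-fold at day 8 (-3.96 ± 0.37 and -3.92 ± 0.36, adjusted p = 1.42e-05 and 1.18e-05). Adamts10 held 13.2, 14.3 and 14.7 CPM, then 3.75, 6.74 and 5.27 CPM, and last 2.21, 2.59 and 3.56 CPM. It fell 2.67-fold by day 4 and 5.05-fold by day 8 (-1.42 ± 0.23 and -2.34 ± 0.24, adjusted p = 0.000536 and 2.25e-05). Its fall from day 4 to day 8 (-0.92 ± 0.24, adjusted p = 0.0174) was not called without day 8 replicate 1 (-0.78) or 2 (-0.87), nor with day 4 and day 8 alone (-0.91).

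Adamts7 (ENSMUSG00000032363) and Adamts12 (ENSMUSG00000047497), which both cut cartilage oligomeric matrix protein, parted at day 4. Adamts7 held 22.0, 26.9 and 27.3 CPM at day 0, 3.02, 8.67 and 2.79 CPM at day 4 and 1.28, 1.23 and 2.97 CPM at day 8. It fell 5.25-fold and 13.9-fold (-2.39 ± 0.45 and -3.80 ± 0.49, adjusted p = 0.00125 and 8.46e-05), with -3.12 at day 4 without day 4 replicate 2. Adamts12 held 118, 146 and 111 CPM, then 193, 207 and 227 CPM, and last 68.4, 77.2 and 107 CPM. It rose 1.67-fold to day 4 (0.74 ± 0.17, adjusted p = 0.00461) and fell 2.48-fold after it (-1.31 ± 0.18, adjusted p = 0.000948). At day 8 Adamts12 was lower than at day 0 (-0.57 ± 0.17, adjusted p = 0.0152), a call lost without day 0 replicate 2 (-0.44) or day 8 replicate 1 (-0.43) or 2 (-0.50). Adamts7 was called lower at day 8 than at day 4 (-1.40 ± 0.47, adjusted p = 0.0461), but not without day 4 replicate 2 (-0.67), day 8 replicate 1 (-1.21) or 2 (-1.19) or day 0 replicate 1 (-1.41), 2 (-1.41) or 3 (-1.41). Nor was it with a replicate block (-1.34), by limma-voom (-1.33), with unscaled library totals (-1.28) or with day 4 and day 8 alone (-1.40).

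At low levels Adamts16 and Adamts17 fell and Adamts19 appeared. Adamts16 (ENSMUSG00000049538) had 94 counts at day 0, 1 at day 4 and 3 at day 8, a ratio of day 0 to day 4 of 98.5 (95% exact counting interval 17.2 to 3930.1) and of day 0 to day 8 of 33.7 (11.2 to 166). The single count of day 4 was in replicate 2. Adamts17 (ENSMUSG00000058145) went from 1.31 ± 0.455 CPM to 0.263 ± 0.0544 and 0.357 ± 0.141 CPM (-2.31 ± 0.41 and -1.87 ± 0.40, adjusted p = 0.000964 and 0.00206). Adamts19 (ENSMUSG00000053441) had 0 counts in all day 0 libraries, 29, 22 and 38 at day 4 and 53, 52 and 113 at day 8. Against a floor of 3 counts per library it was at least 9.44-fold higher at day 4 and at least 22.6-fold higher at day 8 (adjusted p = 0.000291 and 5.81e-05). Counting error is all that these intervals and the floor cover. The later difference of 1.26 ± 0.42 missed the threshold (adjusted p = 0.0532) and passed by DESeq2 (1.26), by limma-voom (1.18), with unscaled library totals (1.40), without the low-count filter (1.25) and with a replicate block (1.20). It was 0.77 without day 8 replicate 3 and 0.58 without day 4 replicate 2 and day 8 replicate 3 together, and passed in neither case.

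The ADAMTSL genes took 3 different courses. Adamtsl1 (ENSMUSG00000066113) and Adamtsl3 (ENSMUSG00000070469) fell. Adamtsl1 held 145, 119 and 157 CPM at day 0, 29.0, 28.2 and 29.8 CPM at day 4 and 15.1, 14.8 and 28.4 CPM at day 8, which was 4.85-fold and 7.24-fold lower (-2.28 ± 0.24 and -2.86 ± 0.24, adjusted p = 3.11e-05 and 6.92e-06). From day 4 to day 8 its difference of -0.58 ± 0.23 did not pass (adjusted p = 0.0812), but passed without day 8 replicate 3 (-0.96), with a replicate block (-0.64), by limma-voom (-0.65) and without the low-count filter (-0.58). Adamtsl3 held 40.5, 26.4 and 34.3 CPM, then 2.01, 2.70 and 1.80 CPM, and last 0.837, 0.401 and 3.05 CPM (-3.95 ± 0.53 and -4.56 ± 0.56, adjusted p = 0.000161 and 6.13e-05). Without day 8 replicate 3 its value at day 8 was -5.75, and it was called lower at day 8 than at day 4 (-1.81), which with all libraries it was not (-0.61 ± 0.55, adjusted p = 0.427).

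Adamtsl2 (ENSMUSG00000036040), which binds fibrillin microfibrils and the latent TGF-beta binding protein Ltbp1, and Adamtsl4 (ENSMUSG00000015850), which binds fibrillin, peaked at day 4. Adamtsl2 held 2.59, 1.15 and 4.17 CPM at day 0, 12.2, 4.79 and 17.6 CPM at day 4 and 1.42, 1.36 and 1.57 CPM at day 8. Day 4 replicate 2 was just above the highest day 0 library. The rise was 4.35-fold (2.12 ± 0.50, adjusted p = 0.00474) and the fall after it 7.92-fold (-2.99 ± 0.53, adjusted p = 0.00317). Adamtsl4 held 12.9, 7.80 and 13.5 CPM, then 23.4, 63.6 and 30.4 CPM, and last 6.70, 6.90 and 10.1 CPM. In this gene day 4 replicate 2 was the highest library. It rose 3.44-fold (1.78 ± 0.37, adjusted p = 0.00216) and fell 4.95-fold (-2.31 ± 0.37, adjusted p = 0.00215). Neither differed from day 0 past the threshold at day 8 (-0.86 ± 0.52 for Adamtsl2 and -0.53 ± 0.37 for Adamtsl4, adjusted p = 0.167 and 0.224).

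Adamtsl5 (ENSMUSG00000043822) passed no test. It held 13.3, 12.3 and 12.1 CPM at day 0, 4.42, 13.0 and 5.56 CPM at day 4 and 9.85, 10.2 and 9.55 CPM at day 8. Day 4 replicate 2 lay within day 0 and the other day 4 libraries under every other library. The difference at day 4 was -0.71 ± 0.33 (adjusted p = 0.0885) and passed without that replicate (-1.33), by limma-voom (-0.86), with upper-quartile scaling (-0.84) and without the low-count filter (-0.69). Without day 4 replicate 2 Adamtsl5 was also called lower at day 8 than at day 0 (-0.34) and higher at day 8 than at day 4 (0.98), where the values with all libraries were -0.35 ± 0.33 and 0.36 ± 0.33 (adjusted p = 0.365 and 0.425). All day 8 libraries lay below all day 0 libraries, and this difference also passed with day 0 and day 8 alone (-0.34).

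**Figure D4:**
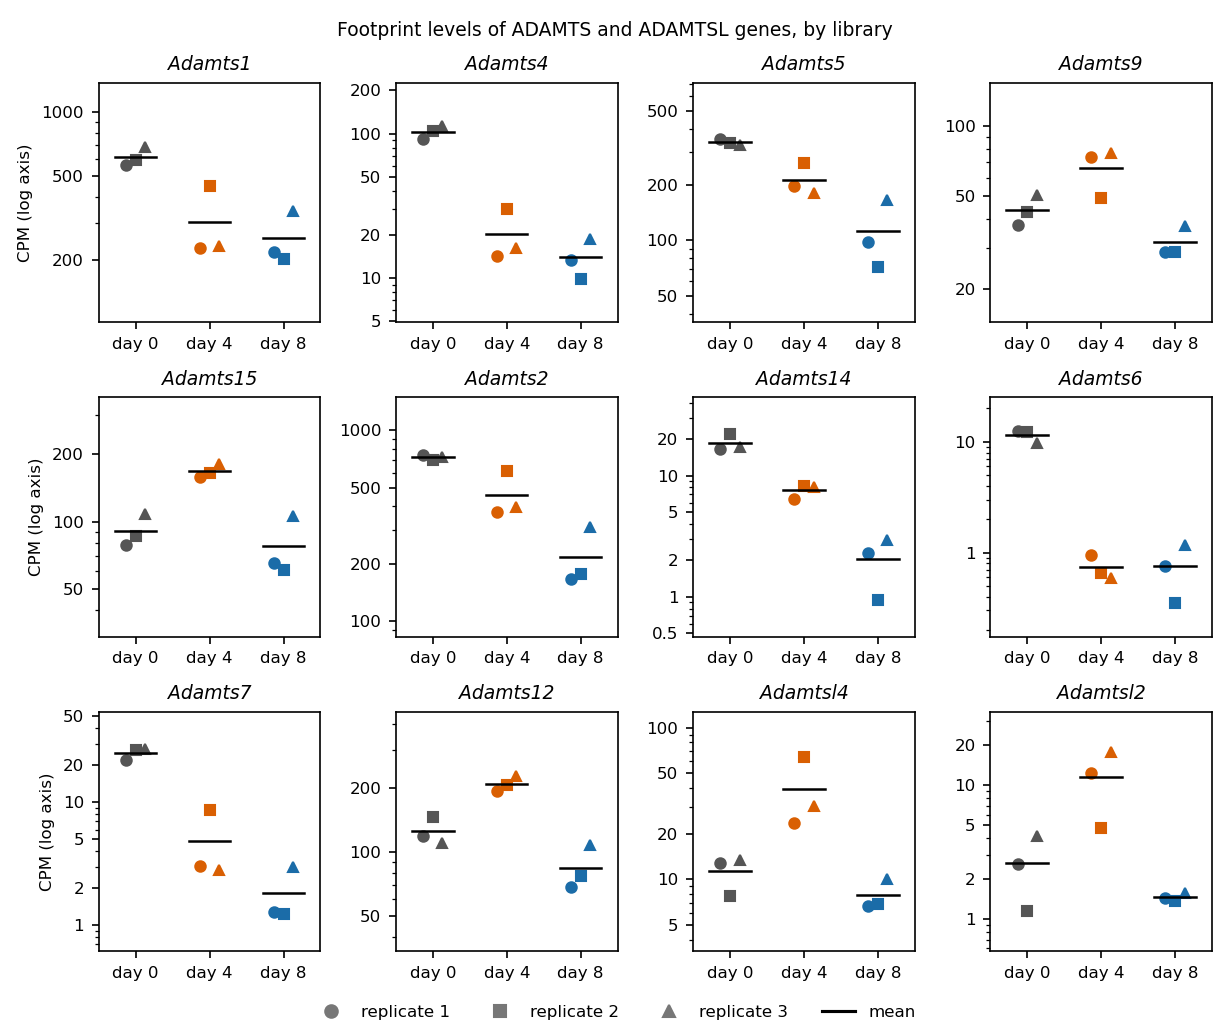
CPM of 10 ADAMTS and 2 ADAMTSL genes on log axes in each library, by day, with 1 symbol per replicate and the mean of each day as a bar. Adamts1, Adamts2, Adamts4, Adamts5, Adamts6, Adamts7 and Adamts14 have their lowest mean at day 8, except Adamts6 (0.737 CPM at day 4 and 0.759 at day 8), and Adamts9, Adamts12, Adamts15, Adamtsl2 and Adamtsl4 have their highest mean at day 4 (66.3, 209, 168, 11.5 and 39.1 CPM).

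Another 12 members failed the filter. Adamts13, Mmp1a and Mmp21 had 0 counts in all 9 libraries. Adamts8, Adamts18, Adamts20, Mmp1b, Mmp7, Mmp20 and Mmp24 had between 1 and 17 counts in all, and Mmp8 had 33. Mmp25 had 33 counts at day 0, 3 at day 4 and 1 at day 8, with a ratio of day 0 to day 4 of 11.5 (95% exact counting interval 3.61 to 58.7) and of day 0 to day 8 of 35.5 (5.94 to 1442.8). These genes were not detectable or barely so at this depth.

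Summed over all members of a kind, mean footprint levels were lower at each later day. The MMP genes held 6213 ± 901 CPM at day 0, 2554 ± 823 at day 4 and 1299.9 ± 420 at day 8 (SD, n = 3), and the TIMP genes 2417 ± 352, 691 ± 289 and 296 ± 138 CPM. The ADAMTS genes held 2115 ± 72.7, 1462 ± 296 and 804 ± 263 CPM, and the ADAMTSL genes 201 ± 29.4, 89.5 ± 21.0 and 40.1 ± 10.9 CPM. Such sums count reads over genes of unlike length and are led by a few genes, so they describe these libraries and were not tested. The ratio of TIMP to MMP reads was 0.511, 0.332 and 0.347 at day 0, 0.274, 0.298 and 0.229 at day 4 and 0.227, 0.184 and 0.253 at day 8. All later libraries were below all day 0 libraries, and both later days overlapped.

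Other proteinases and receptors that act with the members fell for the most part. Beside the counts of the lists, 28.4% of all tested genes had fallen and 29.8% had risen at day 4, and 33.5% and 34.2% at day 8. Of 29 tested genes of that list 16 had fallen and 4 had risen at day 4 (median log2 fold change -0.92) and 21 had fallen and 3 had risen at day 8 (median -1.24). Furin, the convertase that removes the propeptide of Mmp11, Mmp14 and many ADAMTS enzymes, stood at -0.71 ± 0.14 and -1.24 ± 0.14 (adjusted p = 0.0015 and 3.61e-05). Mrc2, a receptor that takes up cut collagen, stood at -2.10 ± 0.29 and -2.46 ± 0.29 (adjusted p = 0.000175 and 5.02e-05). Bsg, a cell surface protein known to induce MMPs in neighbouring cells, rose by 0.99 ± 0.28 and 2.77 ± 0.30 (adjusted p = 0.012 and 2.73e-05). Another list held 10 tested genes tied to proteinase inhibition other than TIMPs. Of them 4 had risen and 2 had fallen at day 4, and 4 had risen and 5 had fallen at day 8 (medians -0.19 and -0.14). The list also holds genes such as Serpinh1 that do not act as inhibitors, so these are not counts of inhibitors alone. Serpinh1, the collagen chaperone, fell (-0.98 ± 0.18 and -1.66 ± 0.19, adjusted p = 0.00121 and 3.67e-05). Spock2, a testican that binds proteinases, rose by 4.25 ± 0.39 and 3.17 ± 0.39 (adjusted p = 1.435e-05 and 6.28e-05). Papln, a matrix protein related to the ADAMTS family, rose by 5.37 ± 0.49 and 6.72 ± 0.50 (adjusted p = 1.35e-05 and 3.06e-06). The general proteinase trap A2m rose by 1.96 ± 0.62 and 4.63 ± 0.62 (adjusted p = 0.0209 and 0.000114).

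In the 4 lists of substrates more genes had fallen than risen by day 8, where 33.5% of all tested genes had fallen and 34.2% had risen. Fibrillar collagens had 5 of 9 genes lower and 1 higher at day 4 and 7 lower and 1 higher at day 8 (medians -1.27 and -2.58), the higher one at both days being Col5a3 (3.78 ± 0.26 and 2.65 ± 0.25, adjusted p = 2.27e-06 and 1.26e-05). Glycoproteins and microfibril genes had 13 of 18 lower and 1 higher at day 4 and 18 lower at day 8 (medians -1.50 and -2.59). Proteoglycans and link proteins had 2 of 7 tested genes lower and 1 higher at day 4 and 5 lower and 2 higher at day 8 (medians -0.98 and -2.22). Vcan, which encodes versican, a substrate of Adamts1, Adamts4, Adamts5, Adamts9 and Adamts15, was not called at day 4 (-0.54 ± 0.38, adjusted p = 0.243) and fell by day 8 (-3.25 ± 0.41, adjusted p = 7.53e-05). Basement membrane genes had 8 of 16 higher and 2 lower at day 4, where 29.8% and 28.4% of all tested genes were, and 3 higher and 10 lower at day 8 (medians 0.27 and -0.57). Col4a1, a chain of the collagen that Mmp2 and Mmp9 cut, rose by 1.37 ± 0.17 to day 4 and then fell (-1.47 ± 0.17; adjusted p = 0.000111 and 0.000518).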

How the data were processed

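The authors deposited 1 table of raw counts per gene for 9 ribosome footprint libraries. Per the submitters' processing notes, cutadapt, HISAT2, featureCounts and the GRCm39 genome were used. For their versions and settings (strand, feature type, multi-mapping reads) the labels have no entry. No RNA-seq was used here, and a footprint count reflects both the amount of mRNA and the ribosomes on it. Groups came from the titles. Genes were filtered with filterByExpr (minimum count 10), scaled by TMM and compared in 1 edgeR quasi-likelihood fit of all 9 libraries by group (edgeR 4.0.16, R 4.3.3). P-values were adjusted over 14714 genes (Benjamini-Hochberg). The SE was derived from the F statistic. DESeq2 1.42.0, limma-voom (limma 3.58.1), other scalings, no filter, 2 days alone, a replicate block and each library left out were alternatives. The fit was run on simulated counts that had the same spread in every library, unlike these data with their 2 deviating libraries. It recovered 77% to 78% of 2-fold and 96% to 99% of 4-fold changes, and 4.84% to 6.42% of its calls were false. Of 14714 genes 100 were changed 2-fold and 100 4-fold in each run, far fewer than were called in these data. The share of false calls may therefore differ in these data. The members, gene lists and alternatives were chosen with earlier results of these data known. Members with a mean of at least 10 CPM on a day are given by library, and the rest by group, except Timp4, Mmp9, Mmp10, Mmp12, Mmp15 and Adamts19, which were singled out after their values were seen. Of each other list the rule takes up to 4 genes with the smallest adjusted p and at least 10 CPM on a day, and only some of these are named. Promoter letters are from RefSeq (GRCm38.p6), which matched 36 of 51 members by symbol.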

Additional observations from a re-analysis of the deposited data

How the results depend on the processing

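The number of called members stayed within 1.5 times under all alternatives for day 4 against day 0 (31) and day 8 against day 0 (31). Leaving out each library in turn gave 29 to 37 and 28 to 33, and 9 to 21 for day 8 against day 4 (16), which was 25 without day 4 replicate 2 and day 8 replicate 3 together. A replicate block gave 31, 31 and 16 calls, of which 30, 31 and 14 were the same genes in the same direction. The correlation of deviations between libraries of different days ran from -0.20 to 0.19 for equal replicate numbers. For unlike numbers it ran from -0.30 to 0.31. With 3 libraries per day this check cannot decide whether equal numbers share a source. Of 2220 single-gene values under an alternative 2068 kept direction and side of the threshold, 72 passed it newly, 63 no longer passed and 17 reversed, and 0 of the reversed values had been called. From day 4 to day 8 these were Adamts1 (-0.53 to 0.14 over libraries left out, the latter without day 4 replicate 2), Adamts6 (0.04 with all libraries, -0.43 to 0.38 over libraries left out, -0.10 by limma-voom, -0.04 and -0.10 without day 4 replicate 2 or 3, -0.43 without day 8 replicate 3, -0.50 without both doubted libraries), Timp3 (-0.55 to 0.28, with 0.11 with library totals, 0.10 and 0.25 without day 4 replicate 1 or 2, 0.07 and 0.28 without day 8 replicate 1 or 2), Mmp9 (-2.38 to 1.19, the latter without day 4 replicate 2, 1.33 without both) and Mmp10 (-1.26 to 4.60, the former without day 8 replicate 3). The others were Adamts3 at day 4 (-0.34 to 0.20, with 0.06 without day 0 replicate 1 and 0.20 without day 4 replicate 3) and Mmp27 at day 8 (-0.84 to 0.10, the latter without day 8 replicate 2). Library totals and upper-quartile scaling shifted the median of all genes at day 4 by -0.15 and -0.13, with 41.9% and 43.2% of called genes higher against 51.2%, and library totals shifted day 8 against day 4 by 0.14, with 65.9% higher against 46.2%. Upper-quartile scaling shifted day 8 against day 0 by -0.11. Under library totals members had 23 lower and 10 higher at day 4 and 13 lower and 2 higher from day 4 to day 8. Depth limits Mmp10, whose later days hold 4 and 9 counts, 4 and 8 of them in 1 library, so that its values above come from few counts.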
